A study of Mus musculus with 4 samples.

Results

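The barcodes described here carried transcripts of a set of lectin and membrane genes, Cd209a, Cd209d, Cd209e, Mgl2, Clec10a and Ms4a6c, in sorted migratory dendritic cells of the mouse ear-draining lymph node. A barcode was a member when it had at least 500 genes, at most 10% mitochondrial UMIs, no UMI of Cd3e, Cd3d, Cd3g, Cd79a, Cd79b, Xcr1 or Clec9a, at least 2 of the 6 genes detected, and at least 4 of their UMIs per 10000. A UMI is a count of 1 captured mRNA molecule. The rule found 410 members among 14058 quality-filtered barcodes, of which 42 were in the MC903 capture and 368 in the untreated capture. The reference for most comparisons is the other barcodes, 4167 in the MC903 and 4811 in the untreated capture, that met the same quality, lymphocyte and Xcr1 or Clec9a conditions. Members were chosen by the measured levels of these 6 genes, so every contrast of members with other barcodes is given as a description.

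Conventional type 2 dendritic cells, or cDC2, take up antigen and present it to CD4 T cells, and in skin they are the dendritic cells that depend on KLF4 and IRF4 and are tied to type 2 responses. In mice, Mgl2 encodes the lectin CD301b, which marks dermal cDC2. Clec10a encodes its close relative CD301a, and the Cd209 genes encode relatives of human DC-SIGN, lectins that bind mannose and fucose. Ms4a6c encodes a small membrane protein found in monocytes and related cells. When dendritic cells mature and leave the skin they switch on Ccr7, the receptor that guides them to the node, and Fscn1, which bundles actin.

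All mice were Tnfsf4KI/+, heterozygous for an allele in which BFP reports Tnfsf4, the gene of OX40L. The MC903 group had MC903, a vitamin D analogue that raises TSLP in skin, put on the ears on days 0, 2 and 4, and the untreated group had none. Nodes were taken on day 5, and per group 5000 BFP+ and 7000 BFP- cells with the phenotype B220-, CD11c intermediate and MHC class II high were sorted, tagged with separate hashtag antibodies and run as 1 capture. Each group was thus 1 capture on its own sequencing lane, and treatment, capture and lane cannot be told apart. How many mice were pooled is not stated in the labels. With 1 sample a group no test was possible: intervals are 95% and cover counting error only, and higher or lower means at least 1.5-fold with at least 20 CPM, UMIs scaled to a sum of 1000000, in the higher sum. Genes of a list also needed at least 50 UMIs over both sums to be counted.

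The MC903 capture was deeper, with a median of 9219 UMIs in its 5636 quality-filtered barcodes, against 2622 in 8422 untreated barcodes. Members had a median of 13449 UMIs in the MC903 capture and 2529 in the untreated capture, against 9613 and 2587 in other barcodes of the same captures. Their UMIs summed to 565649 in the MC903 capture and 1243166 in the untreated capture. The captures shared 23 barcode sequences, and no barcode was a member in both.

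Promoter sequences of the genes that define the set are shown so that the neighbouring Cd209 paralogs can be set beside Mgl2. Each is the 250 bases before the start site from RefSeq on GRCm38.p6, which held 5 of the 6 genes, and those of Cd209a, Cd209d, Cd209e and Mgl2 are written 5′ to 3′ with matches to CACCC or GAGGAA on either strand in capitals. CACCC is the core bound by Krüppel-like factors and GAGGAA a core of sites of PU.1, the myeloid factor encoded by Spi1.
Cd209a, chr8:3748985-3749234 (minus strand): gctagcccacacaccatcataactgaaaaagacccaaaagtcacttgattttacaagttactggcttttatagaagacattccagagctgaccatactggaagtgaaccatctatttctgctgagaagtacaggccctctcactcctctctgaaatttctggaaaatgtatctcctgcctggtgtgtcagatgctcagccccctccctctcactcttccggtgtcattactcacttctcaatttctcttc
Cd209d, chr8:3878500-3878749 (minus strand): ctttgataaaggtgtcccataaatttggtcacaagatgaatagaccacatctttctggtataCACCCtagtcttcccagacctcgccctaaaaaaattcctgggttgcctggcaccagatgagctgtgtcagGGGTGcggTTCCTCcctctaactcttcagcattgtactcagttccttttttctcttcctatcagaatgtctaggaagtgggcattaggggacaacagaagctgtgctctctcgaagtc
Cd209e, chr8:3854287-3854536 (minus strand): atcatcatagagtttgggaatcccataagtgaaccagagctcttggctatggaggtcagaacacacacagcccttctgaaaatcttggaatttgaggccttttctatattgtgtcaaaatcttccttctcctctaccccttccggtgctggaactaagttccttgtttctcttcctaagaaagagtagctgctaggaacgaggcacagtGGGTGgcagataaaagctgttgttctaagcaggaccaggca
Mgl2, chr11:70130107-70130356 (plus strand): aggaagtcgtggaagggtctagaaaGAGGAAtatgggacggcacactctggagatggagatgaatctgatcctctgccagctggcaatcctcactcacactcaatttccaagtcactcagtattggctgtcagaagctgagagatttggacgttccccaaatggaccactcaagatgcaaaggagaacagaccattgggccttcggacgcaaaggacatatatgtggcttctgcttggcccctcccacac
The Cd209d window held 2 CACCC matches and 1 GAGGAA match, the Cd209e window 1 CACCC match and the Mgl2 window 1 GAGGAA match. The Cd209a window and that of Ms4a6c, which is not printed, held neither, and no match overlapped another. CACCC occurred in 52.0% of 32851 mouse promoter windows of this length and GAGGAA in 23.2%, so a match is common. In global alignments the Cd209d and Cd209e windows were 57.5% identical, Cd209a and Cd209e 50.9% and Cd209a and Cd209d 48.7%. Pairs of unrelated genes among the 5 were 45.9% to 51.0% identical, a range that holds both of the Cd209a values.

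The Cd209 genes lie together on chromosome 8, Mgl2 and Clec10a on chromosome 11 and Ms4a6c on chromosome 19. Because the library reads the 3′ end, counts of these relatives could be mixed only where their ends match. In the last 500 bases of annotated transcripts (GENCODE vM21), the longest identical run was 13 bases between Cd209a and Cd209d and 15 between Mgl2 and Clec10a. It was 25 between Cd209d and Cd209b, and 60 between Ms4a6c and its neighbour Ms4a6b, so the Ms4a6c count is the one most open to shared reads.

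Among the 3 Cd209 transcripts Cd209d had the highest level by UMIs, which 3′ counting does not scale with length, at 845 CPM in MC903 members and 866 CPM in untreated members. Cd209a had 440.2 CPM in MC903 members and 425 CPM in untreated members, and Cd209e had 209 CPM in MC903 members and 175 CPM in untreated members. The levels of all 3 Cd209 genes were within 1.5-fold between the members of both captures. Mgl2 was the gene of the set that was furthest apart, with 847 CPM in MC903 members against 297 CPM in untreated members, a log2 ratio of 1.51 (1.31 to 1.71). The rule chose members by the levels of these genes, at unequal depth in the captures. Contrasts of the rule genes between captures are thus also given as a description. Clec10a had 270.5 CPM in MC903 members and 167 CPM in untreated members, and Ms4a6c had 361 CPM in MC903 members and 449.7 CPM in untreated members. A single MC903 member held 48.3% of the Cd209e UMIs and 22.3% of the Mgl2 UMIs.

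Free RNA in droplets was low for these genes. In B cell barcodes, which should lack them, Cd209a had 1.79 CPM in the MC903 capture and 4.42 CPM in the untreated capture, and Mgl2 had 0.897 and 2.95 CPM. Ms4a6c was higher there, at 35.0 CPM in MC903 and 59.0 CPM in untreated B cell barcodes. Its level in other barcodes was lower, at 5.96 CPM in the MC903 capture and 17.97 CPM in the untreated capture. The part of free RNA in the Ms4a6c level of B cell barcodes was not tested. After thinning every barcode to 2000 UMIs, Cd209d was seen in 21 of 41 MC903 members (51.2%) and 165 of 269 untreated members (61.3%), against 0.350% and 3.36% of B cell barcodes. Mgl2 was seen in 21 of 41 thinned MC903 members (51.2%) and 96 of 269 untreated members (35.7%). Median depths of B cell barcodes were 3181 UMIs in the MC903 capture and 3482 in the untreated capture.

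**Figure D1:**
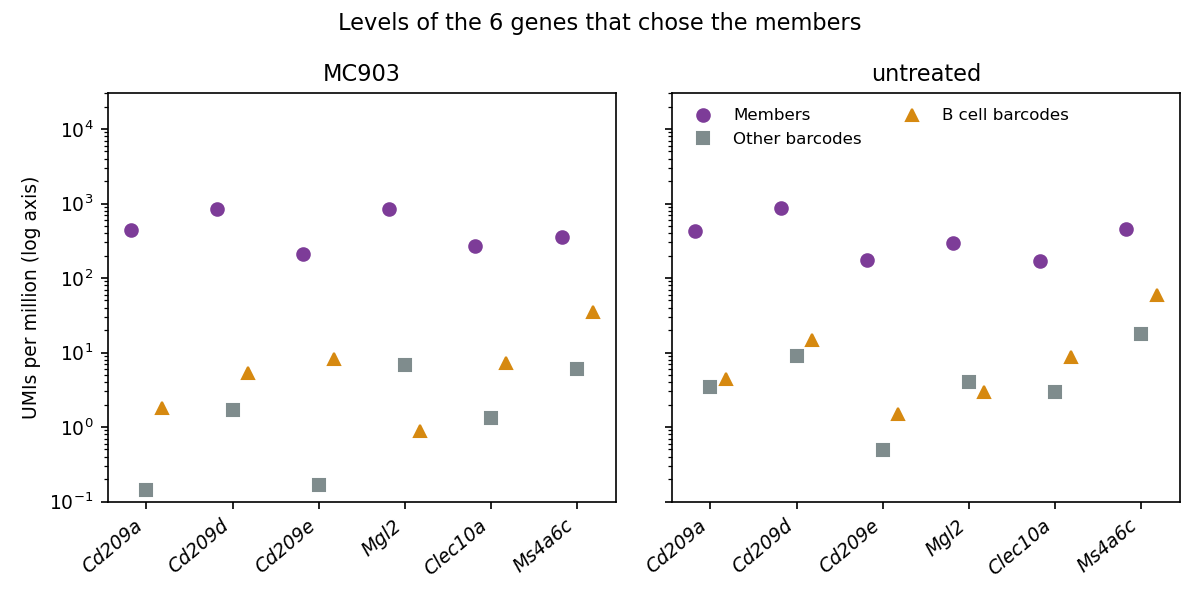
Summed level of each of the 6 genes (CPM, log axis) in members (circles), other barcodes (squares) and B cell barcodes (triangles), with the MC903 capture left and the untreated capture right. Mgl2 stood at 847 CPM in MC903 members and 297 CPM in untreated members, and the 6 genes chose the members, so the gap to other barcodes is given by the rule.

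Members varied in how many of the 6 genes they showed. All 6 were seen in 9 of 42 MC903 members and 13 of 368 untreated members, and exactly 2 in 8 and 158, at unequal depth. Membership rested on exactly 2 marker UMIs in 1 MC903 member and 70 untreated members. The member nearest the limit had 5.24 marker UMIs per 10000 in the MC903 capture and 4.30 in the untreated capture, and the nearest barcode below it with 2 genes had 3.73 and 3.88. A further 24 MC903 and 278 untreated barcodes passed the level with 1 gene only, most often Ms4a6c.

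The rule asked for at least 2 of the 6 genes, so some joint detection is built in, and which genes were paired is given as a description. Of the 29 MC903 members with any Cd209 transcript 26 also had Mgl2 or Clec10a, and of 322 such untreated members 183 did. The 13 MC903 and 46 untreated members without a Cd209 transcript all had Mgl2 or Clec10a, as the rule then requires. Of these, 11 MC903 and 44 untreated members also had Ms4a6c.

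Members were a smaller share of the MC903 capture. They made up 42 of 5636 barcodes (0.745%, exact Clopper-Pearson interval 0.538 to 1.01) in the MC903 capture and 368 of 8422 (4.37%, 3.94 to 4.83) in the untreated capture. Thinned to 2000 UMIs the shares were 0.650% in the MC903 capture and 3.64% in the untreated capture, and among barcodes with at least 4000 UMIs they were 0.793% and 3.84%. The MC903 share was thus below the untreated share at each depth setting, with intervals that did not overlap. The sort fixed how many BFP+ and BFP- cells were loaded, so these are shares of loaded cells, and fewer such cells in the node cannot be told apart from more of the others.

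Within populations called by the dominant hashtag, members were 10 of 1703 BFP+ barcodes (0.587%, 0.282 to 1.08) in the MC903 capture and 7 of 593 (1.18%, 0.476 to 2.42) in the untreated capture. Among BFP- barcodes they were 31 of 3763 (0.824%, 0.560 to 1.17) in the MC903 capture and 291 of 5720 (5.09%, 4.53 to 5.69) in the untreated capture. By this call the 2 BFP+ intervals overlapped and the 2 BFP- intervals did not. It put 593 untreated barcodes in BFP+ and 5720 in BFP-, although 5000 BFP+ and 7000 BFP- cells were sorted. A second call, HTODemux, gave 69 BFP+ and 21 BFP- untreated members, so the untreated shares by population depend on the call.

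**Figure D2:**
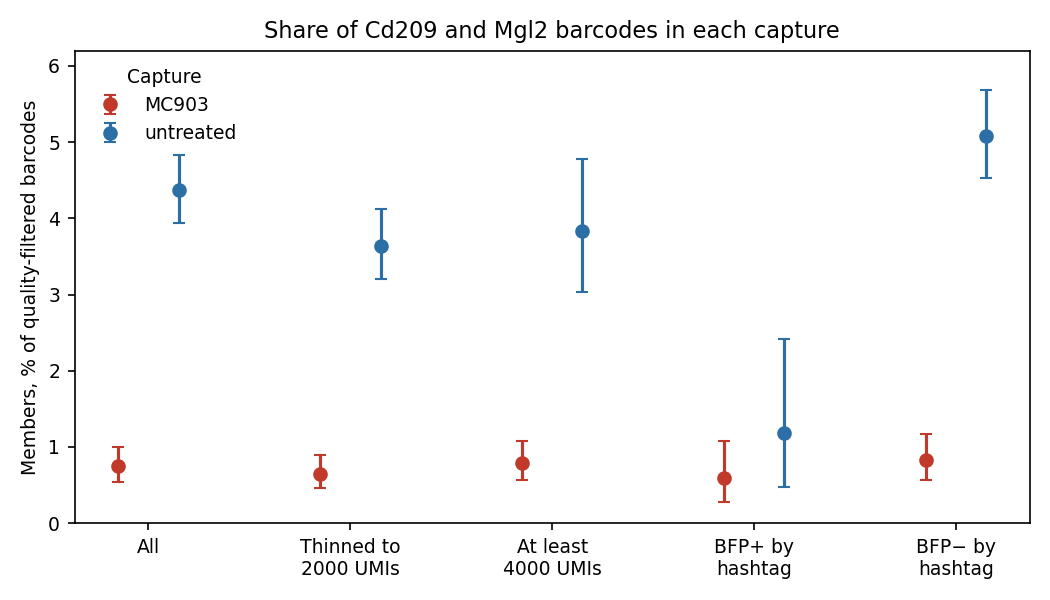
Members as a percentage of quality-filtered barcodes in the MC903 (red, left of each pair) and untreated (blue) captures, for all barcodes, 2 depth settings and the 2 hashtag populations, with exact 95% binomial intervals of counting error. The share of all barcodes was 0.745% in the MC903 capture and 4.37% in the untreated capture.

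By the dominant hashtag, BFP+ barcodes were 24.4% of labelled members (10 against 31 BFP-, interval 12.4 to 40.3) in the MC903 capture and 2.35% (7 against 291 BFP-, 0.95 to 4.78) in the untreated capture. Among other barcodes the BFP+ share was 31.4% in the MC903 capture and 10.6% in the untreated capture. The hashtag call decides the untreated value. HTODemux, which fits a background to each hashtag, called 69 untreated members BFP+ and 21 BFP-, a BFP+ share of 76.7% (66.6 to 84.9), and left 278 uncalled, while its share in MC903 members was 30.3% (15.6 to 48.7). Among other barcodes the HTODemux BFP+ share was 39.6% in the MC903 capture and 70.0% in the untreated capture. The reporter status of untreated members thus depends on the call. With 10 MC903 and 7 untreated BFP+ members and 31 MC903 BFP- members, all under the minimum of 50, genes were not compared between BFP+ and BFP- members or between treatments within either.

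Unsupervised clusters, made without the 6 genes, put most members in a single cluster. Cluster 8, led by Cd209d, Cd209a, Retnla, Cd209e, Mgl2, Ms4a6c, Alox5ap, Plac8, Plbd1 and Hfe, held 26 of 42 MC903 members (61.9%) and 268 of 368 untreated members (72.8%). Cluster 15, led by C1qa, C1qb, C1qc, Pf4, Lyz2 and Apoe, genes of tissue macrophages, held 12 MC903 members (28.6%) and 48 untreated members (13%). A further 3 MC903 and 33 untreated members were in clusters 0 to 7 or 9, and 1 and 19 in other clusters. Members made up 47.3% of the 55 MC903 barcodes and 39.8% of the 673 untreated barcodes of cluster 8. The leading genes of cluster 15 go against a cDC2 label for its members.

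The members of these clusters shared Mgl2 but differed in the macrophage genes and in Cd209a. C1qa, which encodes a complement subunit, had 0 CPM in MC903 members of cluster 8 and 2311 in those of cluster 15, and 6.70 and 3032 CPM in untreated members of clusters 8 and 15. Apoe, a lipid carrier, had 18.1 and 3564 CPM in MC903 members and 85.9 and 11010 CPM in untreated members of clusters 8 and 15. Cd209a ran the other way in untreated members, with 537 CPM in cluster 8 and 0 in cluster 15, whereas in MC903 members it had 576 and 229 CPM, the cluster 15 level coming from 1 barcode. Mgl2 was present in both, at 795 CPM in cluster 8 and 1138 in cluster 15 of MC903 members, and 325 and 279.9 CPM in untreated members.

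Retnla, a secreted product of alternatively activated myeloid cells in mice, led cluster 8 but had no UMI in its MC903 members. It had 3166 CPM in the 9 MC903 barcodes of cluster 8 that met the lineage conditions but not the rule, all of it from 1 barcode. In the untreated capture it had 30.1 CPM in members of cluster 8 and 36.9 CPM in 206 such other barcodes.

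**Figure D3:**
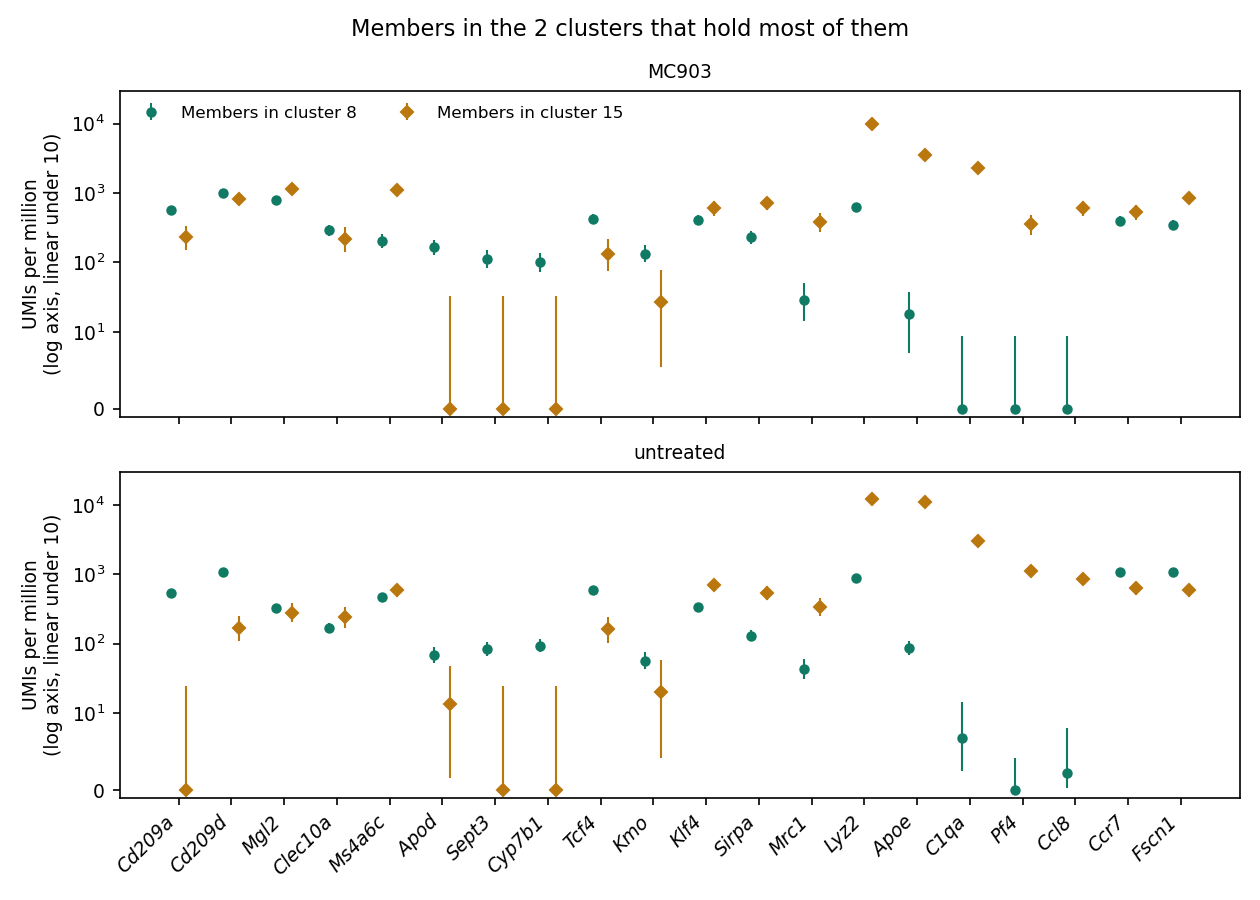
Summed level of the genes named on the axis (CPM; log axis, linear under 10) in members of cluster 8 (circles) and cluster 15 (diamonds), MC903 above untreated, with exact 95% counting intervals. Lyz2 had 632 and 9960 CPM in clusters 8 and 15 of MC903 members, while Ccr7 was within 1.5-fold between them.

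Set against other barcodes, 1750 genes of 5663 with enough counts (30.9%) were higher in MC903 members and 1230 (21.7%) lower. In untreated members 989 of 5537 (17.9%) were higher and 718 (13%) lower. These shares over all genes stand beside the counts of list genes given below. In both captures, 755 of 5165 (14.6%) were higher and 544 (10.5%) lower. The rule used this contrast, the MC903 sum comes from 42 barcodes, and a gene can reach 20 CPM through members alone. Without the top barcode of each gene, 1182 genes were higher and 1616 lower in MC903 members, and 807 higher and 866 lower in untreated members. With TMM scaling, which shifts every MC903 ratio by -0.26 and every untreated ratio by -0.073, the higher genes were 40.3% of those apart in the MC903 capture instead of 58.7%, and 50.1% in the untreated capture instead of 57.9%.

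Several of the genes with the largest ratios in both captures split by cluster. Apod, an apolipoprotein, had 115 CPM in MC903 members against 0.821 CPM in other MC903 barcodes, and 60.3 CPM in untreated members against 1.43 CPM in other untreated barcodes, log2 ratios of 7.13 (6.51 to 7.76) and 5.40 (4.74 to 6.10). Ngfr, the low-affinity neurotrophin receptor, had 33.6 CPM in MC903 members against 0.845 CPM in other MC903 barcodes, and 29.8 CPM in untreated members against 0.661 CPM in other untreated barcodes. Sept3, a septin known from neurons, had log2 ratios of 6.79 in the MC903 capture and 5.09 in the untreated capture. In MC903 members Apod had 168 CPM in cluster 8 and 0 in the 12 members of cluster 15. Sept3 had 114 CPM in MC903 members of cluster 8 and 0 in those of cluster 15.

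Cyp7b1, an oxysterol hydroxylase, had 70.7 CPM in MC903 members against 1.20 CPM in other MC903 barcodes, and 71.6 CPM in untreated members against 2.26 CPM in other untreated barcodes. Ccr9, a gut-homing chemokine receptor also known from plasmacytoid cells, had 23.0 CPM in MC903 members against 0.657 CPM in other MC903 barcodes, and 63.5 CPM in untreated members against 1.93 CPM in other untreated barcodes. A single member held 53.8% of the Ccr9 UMIs of the MC903 members and 6.33% of those of the untreated members. Kmo, an enzyme of the kynurenine pathway, was seen in 24 MC903 and 46 untreated members, with log2 ratios of 6.03 and 4.21. Kmo also had 19.7 CPM in MC903 B cell barcodes and 39.8 in untreated ones, close to its level of 45.9 CPM in untreated members. Wdfy2, an endosomal adaptor, had log2 ratios of 5.14 in the MC903 capture and 4.02 in the untreated capture.

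The other genes of this group, Mrc1, Pf4, Cd209b, Ccl8 and Ccl2, had higher levels in cluster 15 members than in those of cluster 8. In MC903 members the top barcode of each gene held 80% of the Pf4, 75% of the Cd209b and 53.7% of the Mrc1 UMIs. For Ccl8 and Ccl2 that share was 50.7% and 29.2%. In untreated members the shares ran from 10.5% for Mrc1 to 36.2% for Ccl8. Mrc1, the mannose receptor, had 28.4 CPM in cluster 8 and 379 in cluster 15 of MC903 members, and 43.5 and 339.9 CPM in untreated members, and its cluster 8 levels were still above the 1.06 CPM of other MC903 barcodes and the 2.37 CPM of other untreated barcodes. Cd209b, another lectin of the family, had 0 and 176 CPM in MC903 members and 16.7 and 273 CPM in untreated members of clusters 8 and 15. Ccl2, which attracts monocytes, had 2.58 and 203 CPM in MC903 members and 0 and 367 CPM in untreated members of those clusters. Ccl8, a related chemokine, had 0 and 609 CPM in MC903 members and 2.23 and 846 CPM in untreated members of clusters 8 and 15. With members of cluster 8 alone, the untreated log2 ratio of Ccl8 was -1.48 in place of 4.07, and that of Pf4, the platelet factor, was -0.70 as a bound from 0 UMIs in place of 4.61.

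Among the 12 genes most clearly lower in both captures the ratios were smaller. Igsf3, an immunoglobulin superfamily protein, had 15.9 CPM in MC903 members against 53.2 CPM in other MC903 barcodes, and 12.9 CPM in untreated members against 52.3 CPM in other untreated barcodes. Slc7a11, the cystine transporter, had 10.6 CPM in MC903 members against 97.8 CPM in other MC903 barcodes, and 51.5 CPM in untreated members against 145 CPM in other untreated barcodes. Prnp, the prion protein gene, had log2 ratios of -1.66 (-2.20 to -1.18) in the MC903 capture and -1.41 (-1.77 to -1.08) in the untreated capture. Apol10b, Adm, Gria3, Zfp296, Zfp945, Cdk5r1, Golph3l, Scin and Mex3b made up the rest of the 12, and Gria3 had no UMI in MC903 members.

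**Figure D4:**
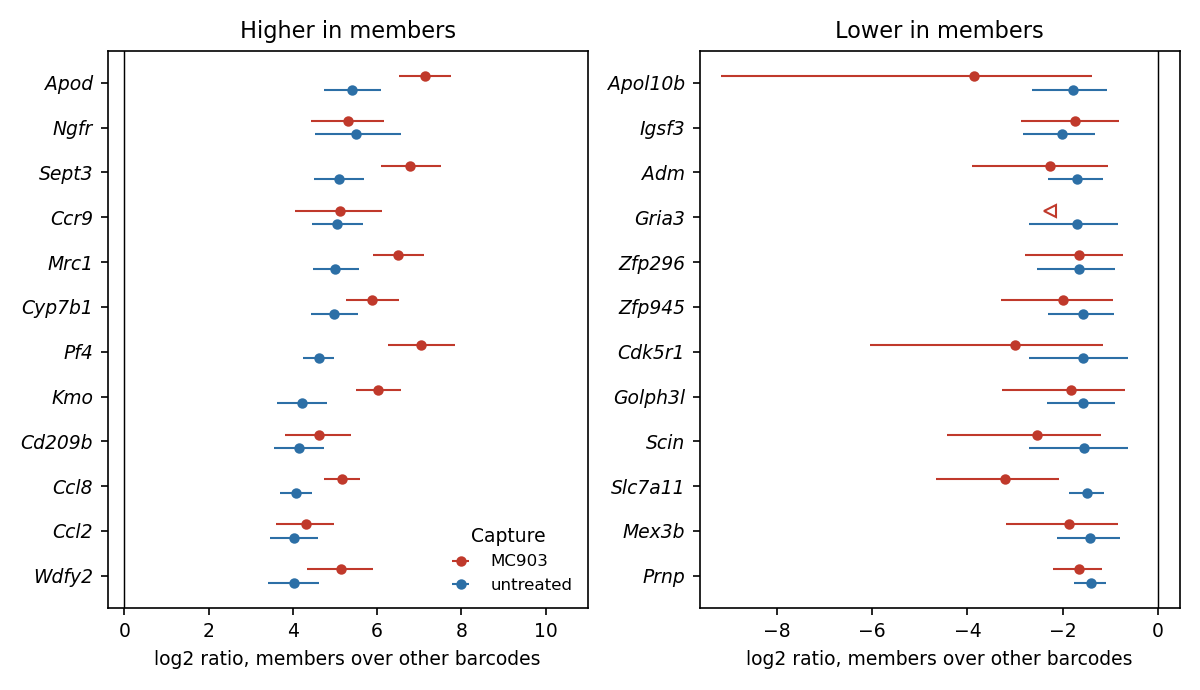
Log2 ratio of members over other barcodes for 12 genes higher and 12 lower in both captures, ranked by the capture with the weaker ratio (MC903 red, upper of each pair; untreated blue, lower), with 95% counting intervals; the open triangle marks a bound from 0 UMIs. Apod stood at 7.13 in the MC903 capture and 5.40 in the untreated capture.

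Of 18 cDC2 genes, 15 had enough counts in the MC903 capture, of which 8 were higher and 5 lower in members, and 13 in the untreated capture, of which 7 were higher and 2 lower. The median log2 ratio was 1.32 in the MC903 capture, beside 0.18 over all genes, and 0.81 in the untreated capture, beside -0.0021 over all genes. Sirpa, the receptor that marks cDC2, had 318 CPM in MC903 members against 66.4 CPM in other MC903 barcodes, and 172 CPM in untreated members against 66.5 CPM in other untreated barcodes. Klf4, the factor needed by a dermal cDC2 subset, had 403 CPM in MC903 members against 79.8 CPM in other MC903 barcodes, and 343 CPM in untreated members against 89.7 CPM in other untreated barcodes, log2 ratios of 2.34 (2.14 to 2.53) and 1.94 (1.78 to 2.09). Over all barcodes of both captures, Sirpa had 177 CPM in cluster 8 and 559 CPM in the macrophage-like cluster 15, and Klf4 had 272 and 387 CPM. The part of cluster 15 in the member levels was not tested. Zeb2, a factor of cDC2 and monocytes, had 304 CPM in MC903 members against 143 CPM in other MC903 barcodes, and 299 CPM in untreated members against 170.2 CPM in other untreated barcodes. Irf4 was not higher, at 65.4 CPM in MC903 members against 97.0 CPM in other MC903 barcodes, and 67.6 CPM in untreated members against 58.1 CPM in other untreated barcodes.

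Several genes of the lineage were lower in MC903 members. Id2, a regulator shared by conventional dendritic cells, had 198 CPM in MC903 members against 1585 CPM in other MC903 barcodes, and 703 CPM in untreated members against 1610 CPM in other untreated barcodes. Zbtb46, a factor of conventional dendritic cells, had 15.9 CPM in MC903 members against 72.9 CPM in other MC903 barcodes, and 82.0 CPM in untreated members against 67.5 CPM in other untreated barcodes. Flt3, the growth factor receptor of the lineage, had 95.5 CPM in MC903 members against 163 CPM in other MC903 barcodes, and 222 CPM in untreated members against 161 CPM in other untreated barcodes.

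Among 21 transcription factors of dendritic cell lineages, 10 of 19 were higher and 4 lower in MC903 members, and 8 of 19 higher and 5 lower in untreated members. Over all genes with enough counts, 30.9% were higher and 21.7% lower in MC903 members, and 17.9% and 13% in untreated members. Runx3, a factor of skin and gut dendritic cells, had 219 CPM in MC903 members against 129.9 CPM in other MC903 barcodes, and 134 CPM in untreated members against 76.5 CPM in other untreated barcodes. Notch2, a receptor that some cDC2 need, had log2 ratios of 1.56 in the MC903 capture and 0.97 in the untreated capture. Batf3, a factor of cDC1 that migratory cells also carry, was lower, at 133 CPM in MC903 members against 380.0 CPM in other MC903 barcodes, and 168 CPM in untreated members against 299 CPM in other untreated barcodes. Irf8, another cDC1 factor, had 240.4 CPM in MC903 members against 334 CPM in other MC903 barcodes, and 140.0 CPM in untreated members against 282 CPM in other untreated barcodes. Other cDC1 markers were higher: of 13, Batf3 and Irf8 included, 4 of 6 with enough counts were higher and 1 lower in MC903 members, and 3 of 6 higher and 2 lower in untreated members, with medians of 1.93 and 0.86 and with Xcr1 and Clec9a at 0 by rule. Wdfy4, needed in cDC1 for cross-presentation, had 229.8 CPM in MC903 members against 8.02 CPM in other MC903 barcodes, and 129 CPM in untreated members against 11.4 CPM in other untreated barcodes. Naaa, a lysosomal amidase, had 225 CPM in MC903 members against 8.49 CPM in other MC903 barcodes, and 119 CPM in untreated members against 14.3 CPM in other untreated barcodes. Spi1, which encodes PU.1, had 476 CPM in MC903 members against 277 CPM in other MC903 barcodes, and 384 CPM in untreated members against 279 CPM in other untreated barcodes.

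Genes that cDC2 share with monocytes were mostly higher. Of 24 such genes 22 had enough counts in the MC903 capture and 23 in the untreated capture, of which 18 and 16 were higher and 1 and 1 lower, with medians of 4.58 and 2.49. Clec4a1, a lectin of the DCIR family, had 141 CPM in MC903 members against 0.868 CPM in other MC903 barcodes, and 53.1 CPM in untreated members against 4.30 CPM in other untreated barcodes. Cd300a, an inhibitory receptor, had 161 CPM in MC903 members against 1.81 CPM in other MC903 barcodes, and 98.1 CPM in untreated members against 6.67 CPM in other untreated barcodes, and was present in both clusters, at 170.4 CPM in cluster 8 and 221 CPM in cluster 15 of MC903 members. Lyz2, lysozyme, had 2431 CPM in MC903 members and 2181 in untreated members, but in cluster 8 it had 632 and 874 CPM and in cluster 15 it had 9960 and 12176 CPM.

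Of 16 macrophage markers all 10 with enough counts in the MC903 capture and 10 of 11 in the untreated capture were higher in members, their sum being 2279 CPM in MC903 members against 196 in other barcodes, and 2939 against 441 CPM in the untreated capture. In cluster 8 alone the defining markers differed among themselves: Fcgr1, a high-affinity receptor for IgG, had 0 CPM in both MC903 and untreated members. Csf1r, the receptor for the macrophage growth factor, had 64.5 CPM in MC903 members of cluster 8 against 3.75 CPM in other MC903 barcodes, and 67.0 CPM in untreated members of cluster 8 against 10.9 CPM in other untreated barcodes. Of 11 monocyte markers 5 of 6 with enough counts were higher in MC903 members and 2 of 3 in untreated members. Ccr2, the receptor that draws monocytes from blood, had 95.5 CPM in MC903 members against 1.31 CPM in other MC903 barcodes, and 91.7 CPM in untreated members against 6.67 CPM in other untreated barcodes. Ly6c2 had 88.4 CPM in MC903 members, 70.0% of it in 1 member, and 16.1 CPM in untreated members.

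Genes of migratory maturation were mostly lower in members. Of 30 such genes, 29 had enough counts in each capture, of which 24 were lower and 1 higher in MC903 members and 22 lower and 0 higher in untreated members, with medians of -1.47 and -0.88. Ccr7 had 500.3 CPM in MC903 members against 2699 CPM in other MC903 barcodes, and 1139 CPM in untreated members against 2534 CPM in other untreated barcodes, log2 ratios of -2.43 (-2.60 to -2.26) and -1.15 (-1.23 to -1.08). Fscn1 had 612 CPM in MC903 members against 2483 CPM in other MC903 barcodes, and 1076 CPM in untreated members against 2030 CPM in other untreated barcodes. Thinned to 2000 UMIs, Ccr7 was seen in 12 of 41 MC903 members (29.3%) and 205 of 269 untreated members (76.2%), against 92.8% and 93.2% of other barcodes. B cells also carry Ccr7, so they give no background for it, and B cell barcodes were chosen for lacking Fscn1.

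Ccr7 and Fscn1 were lower in members with more marker UMIs, a grouping by the values that the rule used and so a description. From members with 4 to 10 marker UMIs per 10000, through 10 to 20 and 20 to 40, to those above 40, Ccr7 was 902, 471, 394 and 251 CPM in the MC903 capture and 1835, 1134, 963 and 350.3 CPM in the untreated capture. Fscn1 was 1372, 555, 472 and 88.3 CPM in the MC903 capture and 1664, 1137, 856 and 365 CPM in the untreated capture over the same steps. Klf4 was 202, 294, 476 and 488 CPM in the untreated capture, but 176, 445, 197 and 747 CPM in the MC903 capture, which is no steady order. In the untreated capture Lyz2 was 3345 CPM in the first step and 1222 CPM in the last, and Sirpa 218 CPM in the first and 156 CPM in the last. The macrophage gene C1qa also differed between the steps, at 631, 161, 1102 and 74.7 CPM in the MC903 capture and 659, 420.4, 262 and 0 CPM in the untreated capture, and its part in the order of Ccr7 and Fscn1 was not tested. The MC903 steps hold 8, 14, 11 and 9 members and the untreated steps 79, 130, 100 and 59, and shares of 1 total are not independent of each other.

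Ccl22, which draws CCR4-bearing T cells, had 718 CPM in MC903 members against 3009 CPM in other MC903 barcodes, and 737 CPM in untreated members against 1612 CPM in other untreated barcodes. Ccl17, its partner ligand, had 97.2 CPM in MC903 members against 583 CPM in other MC903 barcodes, and 139 CPM in untreated members against 336 CPM in other untreated barcodes. Relb, an NF-kappaB subunit of mature dendritic cells, had 221 CPM in MC903 members against 613 CPM in other MC903 barcodes, and 323 CPM in untreated members against 571 CPM in other untreated barcodes. Cd83, a maturation marker, stood apart from this group, at 912 CPM in MC903 members against 992 CPM in other MC903 barcodes, and 1228 CPM in untreated members against 1266 CPM in other untreated barcodes. The costimulatory gene Cd86 was lower in MC903 members, at 248 CPM in MC903 members against 519.8 CPM in other MC903 barcodes, and 139 CPM in untreated members against 157 CPM in other untreated barcodes.

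Antigen presentation genes were mostly higher. Of 13 genes for MHC class II and its partners, 9 of 11 with enough counts were higher and 1 lower in MC903 members, and 11 of 12 higher and 1 lower in untreated members, with medians of 1.18 and 1.46. H2-Ab1, a class II chain, had 10947 CPM in MC903 members against 2642 CPM in other MC903 barcodes, and 8737 CPM in untreated members against 2041 CPM in other untreated barcodes. Cd74, the invariant chain, had 27971 CPM in MC903 members against 12381 CPM in other MC903 barcodes, and 25166 CPM in untreated members against 10016 CPM in other untreated barcodes. H2-DMb1, part of the peptide editor, had log2 ratios of 2.74 (2.55 to 2.92) in the MC903 capture and 2.50 (2.34 to 2.65) in the untreated capture. March1, the ligase that removes class II from the surface of immature dendritic cells, had 35.4 CPM in MC903 members against 0.446 CPM in other MC903 barcodes, and 37.8 CPM in untreated members against 3.31 CPM in other untreated barcodes. H2-Eb2 alone of the list was lower in both captures, with log2 ratios of -1.19 in the MC903 and -0.91 in the untreated capture.

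Beyond the rule, 22 other C-type lectin receptors had 8 genes with enough counts in the MC903 capture, 3 higher and 4 lower in members, and 8 in the untreated capture, 4 higher and 3 lower. Clec4b1, an activating lectin, had 90.2 CPM in MC903 members against 0.727 CPM in other MC903 barcodes, and 54.7 CPM in untreated members against 3.75 CPM in other untreated barcodes. Of 18 chemokine and guidance receptors, 6 had enough counts in each capture, and those higher in members in both included Ccr2 and Cx3cr1. Cx3cr1, the fractalkine receptor, had 47.7 CPM in MC903 members against 1.15 CPM in other MC903 barcodes, and 49.9 CPM in untreated members against 3.75 CPM in other untreated barcodes. Of 22 lysosomal genes 11 of 19 were higher and 6 lower in MC903 members, and 10 of 20 higher and 1 lower in untreated members. Over all genes, 30.9% were higher and 21.7% lower in MC903 members, and 17.9% and 13% in untreated members. Cd68, a lysosomal glycoprotein, had log2 ratios of 3.80 in the MC903 capture and 2.82 in the untreated capture.

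Among 19 inflammatory cytokines and chemokines, 7 of 13 were higher and 4 lower in MC903 members, and 10 of 15 higher and 2 lower in untreated members. Il1b, which encodes interleukin 1 beta, had 1690 CPM in MC903 members against 413 CPM in other MC903 barcodes, and 1746 CPM in untreated members against 616 CPM in other untreated barcodes. Among 20 T cell polarising genes 2 of 10 were higher and 7 lower in MC903 members, and 2 of 8 higher and 3 lower in untreated members. Shares over all genes were 30.9% higher and 21.7% lower in the MC903 capture, and 17.9% and 13% in the untreated capture. Tgfb1, which encodes the regulatory cytokine TGF beta 1, had 180.3 CPM in MC903 members against 30.3 CPM in other MC903 barcodes, and 121 CPM in untreated members against 25.2 CPM in other untreated barcodes. Il15, which encodes a cytokine that supports memory T cells and natural killer cells, had 5.30 CPM in MC903 members against 116 CPM in other MC903 barcodes, and 70.8 CPM in untreated members against 147 CPM in other untreated barcodes.

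Some markers of plasmacytoid dendritic cells, which make type I interferon, were higher in members. Of 10, 5 of 5 with enough counts were higher in MC903 members and 4 of 5 in untreated members. Tcf4, a factor of that lineage that cDC2 subsets also use, had 336 CPM in MC903 members against 179 CPM in other MC903 barcodes, and 487 CPM in untreated members against 132 CPM in other untreated barcodes. It was higher in cluster 8 than in cluster 15, with 599 CPM in cluster 8 and 159.9 CPM in cluster 15 of untreated members. Lag3, an inhibitory receptor that plasmacytoid cells carry, had 65.4 CPM in MC903 members against 6.22 CPM in other MC903 barcodes, and 149 CPM in untreated members against 6.94 CPM in other untreated barcodes. Siglech, a defining marker, was seen in 5 of 42 MC903 members and in 19 of 368 untreated members.

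Markers of several other lineages were near 0. Summed levels over 10 neutrophil markers were 17.7 CPM in MC903 and 12.9 in untreated members, over 8 keratinocyte markers 3.54 CPM in MC903 and 9.65 in untreated members, and over 10 mast cell and basophil markers 33.6 CPM in MC903 and 31.4 in untreated members. In MC903 and untreated members B cell markers summed to 150.3 and 244 CPM and T cell markers to 90.2 and 259 CPM, with Cd79a, Cd79b and the Cd3 genes at 0 by rule. Ighm, the IgM heavy chain, and Cd8a, which some dendritic cells carry, made up most of these sums. Ighm had 139.7 CPM in MC903 members against 18.6 CPM in other MC903 barcodes, and 204 CPM in untreated members against 85.3 CPM in other untreated barcodes. Cd8a had 84.9 CPM in MC903 members against 17.3 CPM in other MC903 barcodes, and 189.8 CPM in untreated members against 35.1 CPM in other untreated barcodes. Of 12 natural killer markers Klrd1, which encodes CD94, was the one counted, at 127 CPM in MC903 members against 21.0 CPM in other MC903 barcodes, and 239 CPM in untreated members against 49.1 CPM in other untreated barcodes, while 9 of the 12 had no UMI in MC903 members. Langerhans cell markers were mixed: of 10, 4 of 7 with enough counts were higher and 2 lower in MC903 members, and 3 of 6 higher and 1 lower in untreated members, with medians of 1.36 and -0.43 over those measured. Epcam, Cldn1 and Il1r2 were higher in both captures. Il1r2, a decoy receptor for interleukin-1, had 38.9 CPM in MC903 members against 6.05 CPM in other MC903 barcodes, and 56.3 CPM in untreated members against 7.50 CPM in other untreated barcodes. Cd207, which encodes langerin, had no UMI in MC903 members and 9 in untreated members, or 7.24 CPM against 10.9 CPM in other untreated barcodes. Bpifa2, a salivary gland gene, had 1020 CPM in untreated members, of which 98.7% came from 1 barcode, and 163 CPM in MC903 members.

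Between MC903 and untreated members, 968 of 5706 genes with enough counts (17%) were higher and 986 (17.3%) lower in MC903 members. These shares stand beside the counts of list genes between treatments given below. Between the other barcodes of the captures, 216 of 4987 (4.33%) were higher and 235 (4.71%) lower in the MC903 capture. The sums of members hold far fewer UMIs, and treatment, capture and lane are the same split. Members also differed in make-up: cluster 15 held 28.6% of MC903 and 13% of untreated members. With members of cluster 8 only, 1150 genes were higher and 1144 lower, and 724 and 774 of them were so among all members. Leaving out the member with the most UMIs of each gene, 603 genes were higher and 1266 lower in MC903 members. Between members of matched depth, 4000 to 12000 UMIs, 1959 were higher and 1431 lower in MC903 members, and 627 of those higher were also higher without the depth limit.

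Cish, a feedback inhibitor that STAT5 switches on, led the genes higher in MC903 members by the bound nearest 0. It had 90.2 CPM in MC903 members, from 19 of 42 barcodes, against 0.804 CPM and 1 UMI in untreated members, a log2 ratio of 6.81 (4.27 to 12.14). In other barcodes it had 35.9 CPM in the MC903 capture and 5.57 CPM in the untreated capture, a log2 ratio of 2.69. T cell barcodes carried it in both captures, at 58.4 CPM in the MC903 capture and 39.4 CPM in the untreated capture. It was in cluster 8, with 98.1 CPM in MC903 and 0 CPM in untreated members, and had 17.6 CPM in MC903 members of cluster 15.

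Fabp5, a fatty acid carrier, had the most UMIs of this group, at 7027 CPM in MC903 members against 1232 CPM in untreated members, a log2 ratio of 2.51 (2.43 to 2.60). Its ratio between other barcodes was 1.19, with other MC903 barcodes at 7098 CPM, close to MC903 members, and other untreated barcodes at 3120 CPM. Between members of 4000 to 12000 UMIs the Fabp5 ratio was 1.29. Htr7, a serotonin receptor, had 67.2 CPM in MC903 members and 6.44 in untreated members, a log2 ratio of 3.38 (2.26 to 4.70), with 2.18 between other barcodes. Pecr, a peroxisomal reductase, had 42.4 CPM in MC903 members against 2.41 CPM in untreated members, and its ratio between other barcodes was -0.53. Tarm1, an activating receptor of myeloid cells, had 67.2 CPM in MC903 members against 6.44 CPM in untreated members. Hsd11b2, which inactivates corticosterone, had 37.1 CPM in MC903 members against 0 CPM in untreated members.

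Several other genes of the group rested on few barcodes. Ly6d, a marker of B and plasmacytoid cells, had 225 CPM in MC903 members against 30.6 in untreated members, but came from 3 MC903 members, 1 with 64.6% of the UMIs, and was 1738 CPM in MC903 and 1578 CPM in untreated B cell barcodes. Cox6a2 and Klk1, known from plasmacytoid cells, and Chil3, a monocyte and macrophage lectin, came from 2 MC903 members each. Thy1 had 72.5 CPM in MC903 members, from 5 barcodes, against 4.83 CPM in untreated members. At a mitochondrial limit of 5% the log2 ratio of Ly6d was -3.91 and that of Siglech -3.23.

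Lower in MC903 members was Ccl5, the chemokine also called RANTES, with 179 CPM against 5791 CPM in untreated members, a log2 ratio of -5.02 (-5.32 to -4.74). In other barcodes it had 7417 CPM in the MC903 capture and 11310 CPM in the untreated capture, a ratio of -0.61. Thinned to 2000 UMIs, Ccl5 was seen in 8 of 41 MC903 members (19.5%) and 244 of 269 untreated members (90.7%), and in 28.0% of MC903 and 45.4% of untreated B cell barcodes. The MC903 members' level was thus no higher than the 197 CPM of MC903 B cell barcodes, while untreated members lay above the 679.6 CPM of untreated B cell barcodes. Within cluster 8 Ccl5 had 191 CPM in MC903 and 5434 CPM in untreated members.

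Several others of this group were also lower in other barcodes of the MC903 capture. Clu, the chaperone clusterin, had 3.54 CPM in MC903 members against 227 in untreated members, with 89.8 against 462 CPM in other MC903 and untreated barcodes and 2.69 against 35.4 CPM in MC903 and untreated B cell barcodes. Cxcl1, a neutrophil-attracting chemokine, had no UMI in MC903 members and 185 CPM in untreated members, with a ratio of -1.88 between other barcodes. Mfge8, which bridges dying cells to phagocytes, had 8.84 CPM in MC903 members against 179 CPM in untreated members, with 86.2 against 257 CPM in other MC903 and untreated barcodes and 4.49 against 20.6 CPM in MC903 and untreated B cell barcodes. Ltc4s, a leukotriene synthase, had 10.6 CPM in MC903 members against 131 CPM in untreated members, and 104 against 255 CPM in other MC903 and untreated barcodes. Insm1, Synpo2, Zmynd15, Apol7c, Dscaml1, Asprv1 and Calm4 completed the 12. The part of free RNA in these ratios was not tested.

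**Figure D5:**
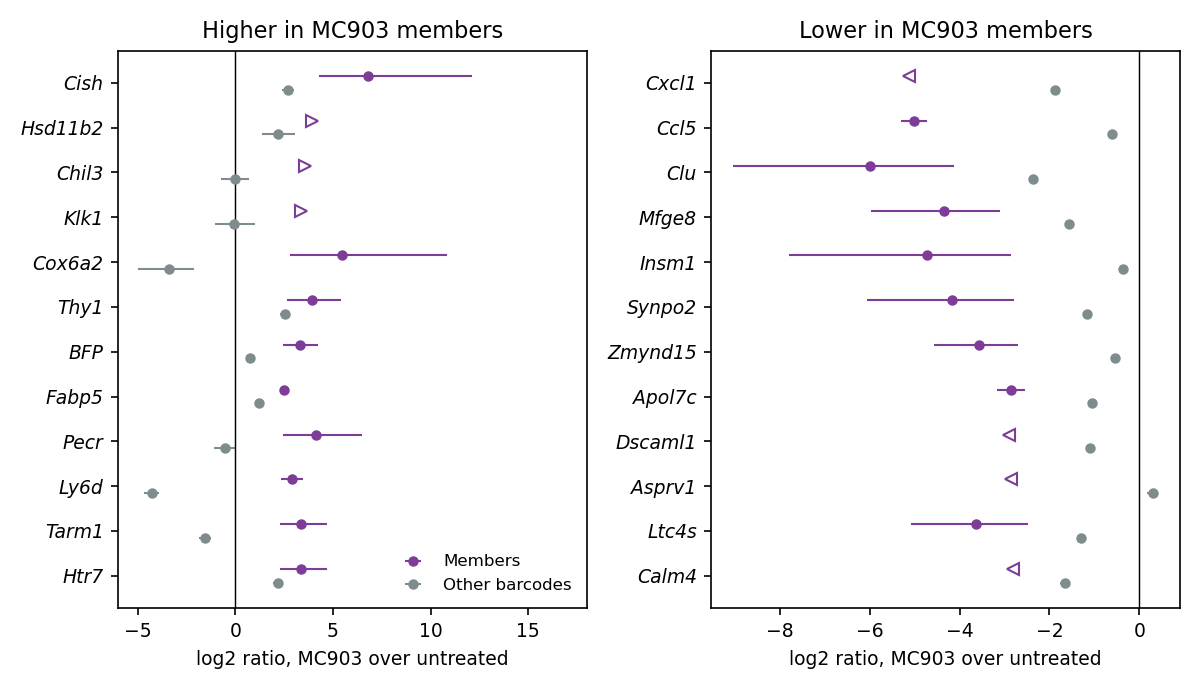
Log2 ratio of MC903 over untreated for the 12 genes each way with the bound nearest 0 furthest from it, in members (purple, upper of each pair) and other barcodes (grey, lower), with 95% counting intervals; open triangles mark bounds from 0 UMIs. Ccl5 stood at -5.02 in members and -0.61 in other barcodes, and BFP at 3.31 with 76.2% of its MC903 UMIs in 1 member.

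MC903 raises TSLP, whose receptor pairs Crlf2 with Il7r and signals through STAT5. Of 18 genes of this pathway 5 of 13 with enough counts were higher and 2 lower in MC903 members, with a median of 0.25 beside 0.045 over all genes. Crlf2 had 79.6 CPM in MC903 members and 86.9 in untreated members, with 23.0 CPM in other MC903 and 25.4 CPM in other untreated barcodes, so it was higher in members of both captures, though MC903 B cell barcodes had 92.4 CPM and untreated ones 78.1 CPM. Il7r had 194 CPM in MC903 members against 94.1 CPM in untreated members. Socs3, another feedback inhibitor, had 129 CPM in MC903 members against 45.9 CPM in untreated members, though between members of 4000 to 12000 UMIs its ratio was -0.13 in place of 1.49. Il2ra, a STAT5 target, was lower, at 5.30 CPM in MC903 members against 29.0 CPM in untreated members, while other barcodes had 85.3 CPM in the MC903 capture against 48.1 CPM in the untreated capture.

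Of 19 genes of the response to IL-4 and IL-13, 1 of 10 was higher and 1 lower in MC903 members, beside 17% and 17.3% of all genes. Pdcd1lg2, the checkpoint ligand PD-L2, was the higher one, at 76.0 CPM in MC903 members against 19.3 in untreated members, a ratio of 1.98 (1.22 to 2.76). Other barcodes had 37.5 CPM in the MC903 capture against 12.7 CPM in the untreated capture, a ratio of 1.56. Between members of 4000 to 12000 UMIs the Pdcd1lg2 ratio was -0.10. Of 8 genes of the vitamin D response 2 had enough counts, of which 0 were higher and 1 lower in MC903 members. The lower one was Cd14, with a log2 ratio of -0.74. Vdr, the receptor that MC903 binds, had too few UMIs to be counted, 18 in the MC903 sum and 2 in the untreated sum. Its level was 31.8 CPM in MC903 members against 1.61 CPM in untreated members. Other barcodes had 18.2 CPM of Vdr in the MC903 capture against 4.02 CPM in the untreated capture. Cyp24a1, the classical target of Vdr, had no UMI in members of either capture.

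Of 30 maturation genes, 4 were higher and 11 lower in MC903 members, and 9 higher and 3 lower in other MC903 barcodes. Ccr7 had a log2 ratio of -1.19 between members and 0.091 between other barcodes, and Fscn1 had -0.82 (-0.99 to -0.64) between members and 0.29 between other barcodes, MC903 over untreated. Cd86 and Cd80 were higher after MC903 in both, with ratios of 0.83 and 0.97 between members and 1.73 and 1.53 between other barcodes. Between members of 4000 to 12000 UMIs the Cd86 ratio was -0.25. Of the genes shared with monocytes 10 of 22 were higher and 1 lower in MC903 members. Cluster 15 held a larger share of MC903 members, 28.6% against 13%, and its part in these counts was not tested. Of the class II genes 1 of 12 was higher and 1 lower in MC903 members. The higher gene was Ciita, the class II master regulator, at 345 CPM in MC903 members against 148 CPM in untreated members.

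Of 20 T cell polarising genes 0 of 7 were higher and 4 lower in MC903 members. Il12b, a subunit of IL-12 and IL-23, had 1.77 CPM from 1 UMI in MC903 members against 53.9 CPM in untreated members, a ratio of -4.93 (-10.26 to -2.40), and 91.1 against 78.4 CPM in other barcodes. Of 18 immediate early and heat shock genes, which also respond to tissue handling, 0 were higher and 10 lower in MC903 members. Hspa1a had 179 CPM in MC903 members against 521 CPM in untreated members, and 408 against 620.1 CPM in other MC903 and untreated barcodes. Against other barcodes, 9 of 18 of them were higher and 0 lower in untreated members. Egr2, an early response factor, had 55.5 CPM in untreated members against 5.13 CPM in other untreated barcodes.

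Transcripts of the reporter and of its gene were rare in members. Tnfsf4 was seen in 2 of 42 MC903 members and 7 of 368 untreated members, with 7.07 and 5.63 CPM, against 13.9 and 10.1 CPM in other barcodes. BFP was seen in 5 MC903 and 12 untreated members, with 111 CPM in MC903 and 11.3 CPM in untreated members, against 42.7 CPM in other MC903 and 25.4 CPM in other untreated barcodes. A single MC903 member held 76.2% of the BFP UMIs. Without the top barcode of each group the MC903 log2 ratio of members over other barcodes was -0.66 in place of 1.38.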

How the data were processed

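Single-cell RNA was captured with 10x Genomics 3′ v3 chemistry from 1 pool of tagged cells per group. The authors deposited raw UMI counts per gene and hashtag for each barcode. The headers name Cell Ranger 3.1.0, and the submitters' processing notes name GRCm38 (mm10). Further upstream settings are not given in the sources used here.

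Counts were summed over barcodes and scaled to CPM, a sum of 1000000. Ratios have exact conditional Poisson intervals and shares exact Clopper-Pearson intervals, both covering counting error only. A gene at 0 was given a floor of 3 counts over the group, as a bound. The interval step was tested on simulated counts with known ratios.

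Barcodes were labelled BFP+ or BFP- where at least 80% of at least 10 hashtag counts came from 1 hashtag, with HTODemux (Seurat 5.3.0) as the alternative. Clusters were Leiden clusters (scanpy 1.11.5, 30 components, 15 neighbours, resolution 0.8) of all quality-filtered barcodes without the 6 genes. TMM factors came from edgeR 4.0.16, used for scaling only. No doublet caller was run. HTODemux called 1 MC903 and 5 untreated members doublets. B cell barcodes had Cd79a, Cd79b and Ms4a1 and no Fscn1 or Cd3; T cell barcodes had at least 2 Cd3 genes and no Fscn1 or Cd79.

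The members and gene lists were chosen with earlier results of these data known. Named genes were 12 higher and 12 lower in members, ranked by the capture with the weaker ratio, the 12 each way between treatments by the interval bound nearest 0, the rule genes, Tnfsf4, BFP, Ccr7, Fscn1 and list genes with the largest ratios and at least 50 UMIs. Unnamed gene models, ribosomal, mitochondrial, receptor, haemoglobin and sex-linked genes were left out. Further genes named for their known roles were chosen after their values were seen. Alternatives tried were other count minimums, depth, mitochondrial and marker limits, other scaling, hashtag calls, single barcodes left out and, after the data were seen, subsets of clusters.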

Additional observations from a re-analysis of the deposited data

Results flagged for a closer look

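Directions differed between groups for these genes, and no difference was tested. BFP had a log2 ratio of members over other barcodes of 1.38 in the MC903 capture and -1.17 in the untreated capture. Bpifa2 had -3.75 in the MC903 capture and 7.75 in the untreated capture, where 1 member held 98.7% of its UMIs. For MC903 over untreated, Bpifa2 had -2.65 in members and 8.85 in other barcodes. Il2ra had -2.45 in members, from 3 and 36 UMIs, and 0.83 in other barcodes. Cebpb, a myeloid transcription factor, had 1.17 in members and -1.37 in other barcodes. Plac8 had 0.87 in members and -1.06 in other barcodes, and it was also abundant in B cell barcodes, at 681 CPM in the MC903 capture and 746 CPM in the untreated capture. Ly6d had 2.88 in members, with 64.6% of the MC903 UMIs in 1 member, and -4.28 in other barcodes. Over all genes with enough counts, 13 of 5165 were apart in opposite directions between the captures and 26 of 4658 between members and other barcodes under treatment.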

How the results depend on the processing

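No paired analysis was possible because each treatment had 1 capture. The member share was 0.461% in the MC903 capture and 3.18% in the untreated capture with members of cluster 8 only. In the untreated capture it was 3.84% at 8 marker UMIs per 10000, 2.49% with 3 of 6 genes, 3.22% without Ms4a6c and 3.64% after thinning. At a minimum of 50 CPM the genes higher and lower in members were 858 and 724 in the MC903 capture, 463 and 427 in the untreated capture, and 441 and 414 between treatments. At a minimum of 10 UMIs they were 5424 and 2219, 2828 and 1925, and 1802 lower between treatments. Between treatments 603 genes were higher without the top barcode of each gene and 1959 between members of 4000 to 12000 UMIs. The BFP+ share of untreated members was 76.7% by HTODemux, beside 70.0% of other untreated barcodes. The cause of these shifts was not tested. Of the ratios of genes under each alternative, 2806 stayed within their interval, 605 moved and 38 turned sign; the cluster limits were chosen after the data were seen. At a mitochondrial limit of 5% the log2 ratios of MC903 members over other barcodes were BFP -0.69. Without the top barcode of each gene the log2 ratios of MC903 members over other barcodes were BFP -0.66. With members of cluster 8 only the log2 ratios of MC903 members over other barcodes were C1qa -0.34, Cxcl9 -0.26 and Apoe -2.61. Those of C1qa and Cxcl9 are bounds from 0 UMIs in members. With other barcodes of clusters 0 to 9 only the log2 ratios of MC903 members over other barcodes were Bpifa2 1.04. With both cluster limits the log2 ratios of MC903 members over other barcodes were Bpifa2 0.68, Cxcl9 -0.10 (a bound from 0 UMIs) and Apoe -2.13. With members of cluster 8 only the log2 ratios of untreated members over other barcodes were Bpifa2 -0.50, Cebpb -1.21, C1qa -2.58, Pf4 -0.70, Apoe -1.37, Ccl12 -0.57 and Ccl8 -1.48. Those of Bpifa2 and Pf4 are bounds from 0 UMIs in members. With both cluster limits the log2 ratios of untreated members over other barcodes were Bpifa2 -0.18 (a bound from 0 UMIs), Cebpb -0.56, C1qa -0.17 and Ccl8 -0.21. At a mitochondrial limit of 5% the log2 ratios of MC903 over untreated members were Siglech -3.23, Ctsl -0.56, Ly6d -3.91 and Ly6c2 -0.25. Without the top barcode of each gene the log2 ratios of MC903 over untreated members were Bpifa2 3.00. Between 4000 and 12000 UMIs the log2 ratios of MC903 over untreated members were Bpifa2 2.23, Il13ra1 0.12, Cxcl9 -1.88, Cxcl10 -0.88, Lag3 0.33, Socs3 -0.13, Cd86 -0.25, Retnla 0.29, Pdcd1lg2 -0.10 and BFP -0.47. Retnla had 0 UMIs in these MC903 members, so its value is an upper bound set by the floor and its sign shows no direction. With members of cluster 8 only the log2 ratios of MC903 over untreated members were Bpifa2 5.24, Cxcl9 -1.01 and Cxcl10 -1.60. The Bpifa2 value is a bound from 0 UMIs in untreated members and the Cxcl9 value a bound from 0 UMIs in MC903 members. A lone capture a group, 42 MC903 members and shallow untreated barcodes limit what these counts show.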
